A study of Homo sapiens with 12 samples.

Results

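The centrosome and tubulin genes were 54 of 11963 genes measured on 12 Affymetrix arrays of RCC4, an established cell line from a clear cell renal carcinoma without working VHL. They were chosen by symbol. Genes named CEP with a digit, the alpha-, beta- and gamma-tubulins and the gamma-tubulin complex proteins were taken, with PCM1, PCNT, NIN, CETN2, CETN3, CKAP5, STIL and OFD1. SASS6, also on that list of names, was not analysed here, because no probe set carried its symbol alone. By their known roles 10 of the genes act in centriole assembly, 7 in the pericentriolar matrix, the centrins and microtubule growth, 5 in centriolar satellites and 4 in appendages and cilium assembly, and CEP55 acts in late mitosis. A further 6 were other CEP genes, 6 belong to the gamma-tubulin ring complex, 6 are alpha-tubulins and 9 are beta-tubulins. All but CEP72-DT, a non-coding RNA gene beside CEP72 that matched by its letters only, and the pseudogene TUBB7P are annotated as protein coding. The study crossed YAP silencing with erastin, an inhibitor of the cystine transporter that starves cells of cysteine and triggers ferroptosis, and asked how silencing of YAP changes gene expression. The 4 groups of 3 arrays were siYAP cells in DMSO, siNT cells in DMSO, siYAP cells under erastin and siNT cells under erastin, where siYAP is an siRNA against YAP and siNT a non-targeting one. All cells were transfected for 2 days and then given DMSO, the vehicle, or 1 µM erastin for 7 hours.

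The centrosome organises the microtubules of an animal cell. It holds a pair of centrioles in a protein matrix, and each cell cycle a new centriole is built beside each old one before the centrosomes part to form the poles of the spindle. Microtubules are polymers of alpha- and beta-tubulin that start from rings of gamma-tubulin, and in a resting kidney tubule cell the older centriole is the base of the primary cilium. YAP is a transcriptional coactivator that binds DNA through TEAD factors, and many genes of centrosome duplication are made in waves with the cell cycle.

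All values were log2 RMA values, the authors' background-corrected and equalised summary of the probes of a probe set, and a difference of 1 on this scale is 2-fold. The array medians lay between 6.49 and 6.52, and replicate arrays had correlations of 0.9955 to 0.9986 over probe sets. YAP1 checked the labels, at 4.18, 4.88 and 4.81 in siYAP cells in DMSO, against 8.55, 8.59 and 8.47 in siNT cells in DMSO. Under erastin it stood at 4.68, 6.21 and 4.90 in siYAP cells, against 8.47, 8.52 and 8.65 in siNT cells, and the log2 change was -3.91 in DMSO and -3.28 under erastin. Of 12 renal carcinoma and tubule markers 10 were measured, with a median level of 9.97 (PAX8 10.51, CA12 10.68), although ANPEP stood at only 3.27. Their mean level was 9.34 to 9.38 in siYAP cells in DMSO, against 9.09 to 9.17 in siNT cells in DMSO, and 9.36 to 9.37 against 9.11 to 9.16 under erastin. Endothelial, immune and fibroblast markers had medians of 4.33, 4.14 and 5.10, and 10 of the 54 genes had a mean under 5.1, so that they cannot be told from genes these cells lack. Single markers stood higher, with COL1A1 at 7.51, RGS5 at 6.74, TEK at 5.87, CD3E at 5.54 and CD3D at 5.22. The other markers of these lists stood at 5.10 or lower. Level alone does not separate TUBGCP5 (mean 5.24), CEP97 (5.43) or TUBG2 (5.83) from such markers either, so the count of 10 is a lowest estimate. Only 3 arrays per group limited the precision, with a median standard error (SE) of 0.078 over all genes. In RNA of whole cultures, fewer dividing cells and less RNA per cell cannot be told apart. The labels name an siRNA against YAP and a control siRNA only, so loss of YAP and other effects of the siRNA cannot be told apart either.

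After YAP silencing a large share of these genes was lower, with the lowest estimates in CEP135 and CEP97 of centriole assembly and in CEP55. In siYAP against siNT cells in DMSO, 22 of the 54 fell (40.7%) and 3 rose (5.56%) at an adjusted p under 0.05 in limma, while over all genes 33.7% passed, with 15.6% lower and 18.1% higher. Under erastin 24 fell (44.4%) and 3 rose (5.56%), against 14.8% and 20% of all genes, 34.9% in total. Their median change was -0.16 in DMSO and -0.18 under erastin, beside 0.02 and 0.01 for all genes. In DMSO all 3 siYAP arrays lay below all 3 siNT arrays for 24 of the 54 (20.7% of all genes), and above them for 7 (24.7%). Under erastin these counts were 28 (19.7% of all genes) and 6 (25.3%). The DMSO and erastin comparisons share no array. Of the falls in DMSO 17 were also falls under erastin (77.3% of the DMSO falls and 70.8% of the erastin falls, where all genes had 74.7% and 78.4%). CEP15, TUBA1A and TUBG2 rose in both comparisons, no gene changed in opposite directions, and 22 passed the test in neither. A fall of at least 0.5 was passed by 9 of the 54 in DMSO (5.61% of all genes) and by 7 under erastin (5.33%), and a rise of that size by none in DMSO (5.37% of all genes) and by CEP15 under erastin (5.94%). Without CEP72-DT, TUBA4B and TUBB7P, 22 of 51 fell in DMSO and 23 under erastin.

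**Figure D1:**
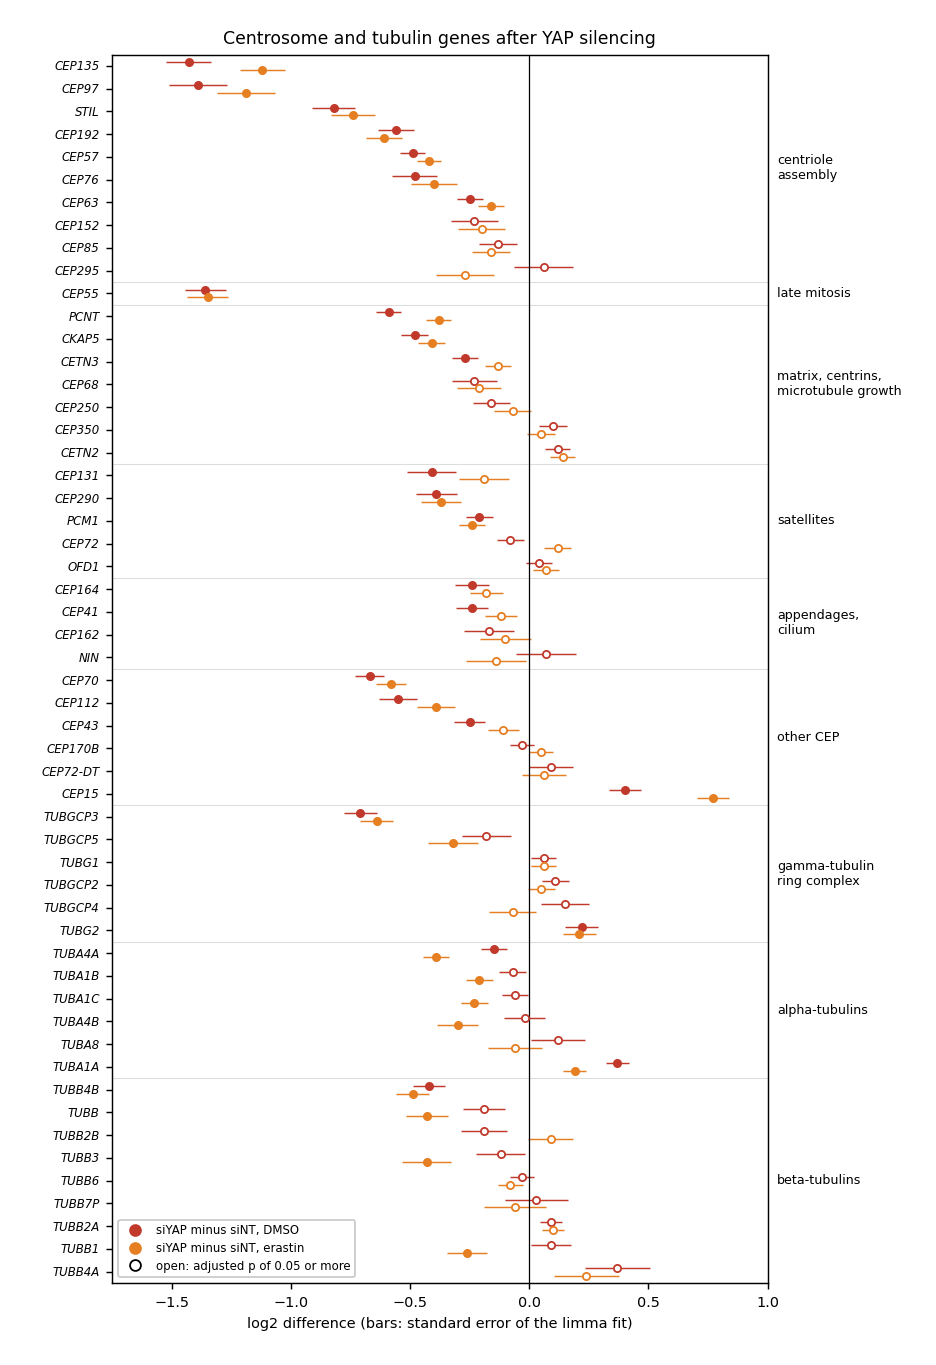
Change of each of the 54 genes after YAP silencing, as siYAP minus siNT on the log2 scale (horizontal axis), in DMSO (red) and under erastin (orange), by role. Points are limma estimates with their SE, and open points have an adjusted p of 0.05 or more. Most centriole assembly genes lie left of 0, down to -1.43 for CEP135 in DMSO. On the brightest probe set of each gene, shown here, alpha- and beta-tubulins lie between -0.49 and 0.37. A further probe set of TUBB, not shown, changed by -1.17 in DMSO and -1.20 under erastin.

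Of the 10 centriole assembly genes, 7 fell and none rose in each comparison, with a median of -0.48 in DMSO (range -1.43 to 0.06) and -0.41 under erastin (-1.19 to -0.16). For this and each group below, the shares of all genes were 15.6% lower and 18.1% higher in DMSO. Under erastin they were 14.8% and 20%. CEP135, a structural protein of the cartwheel on which a new centriole is built, stood at 6.21, 6.14 and 6.41 in siYAP cells in DMSO, against 7.73, 7.74 and 7.58 in siNT cells. Under erastin it stood at 6.37, 6.56 and 6.42 in siYAP cells, against 7.48, 7.46 and 7.77 in siNT cells. The groups lay far apart in both media, and CEP135 fell by 1.43 in DMSO (SE 0.0959, adjusted p = 2.51e-07, 2.69-fold lower) and, with erastin, by 1.12 (adjusted p = 1.78e-06, 2.17-fold lower). Its other probe set was near the bottom of the scale, with a mean of 2.84, and read -0.06 and -0.26 with no call, and the mean of both fell by 0.74 in DMSO.

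CEP97 caps the far end of the centriole with CCP110 and restrains cilium growth. It had 4.85, 4.55 and 4.71 in siYAP cells in DMSO, against 6.02, 6.32 and 5.96 in siNT cells, and 4.75, 5.07 and 4.78 in siYAP cells under erastin, against 6.24, 5.91 and 6.04 in siNT cells. No siYAP array reached any siNT array, and CEP97 fell by 1.39 in DMSO (SE 0.122, adjusted p = 2.02e-06) and, with erastin, by 1.19 (adjusted p = 7.87e-06). The siYAP values lay below 5.1, the median of the fibroblast markers, where RMA compresses differences, which leaves the size of the fall uncertain. STIL, which brings SASS6 to the site of the new centriole under the kinase PLK4, had 9.11, 9.05 and 9.29 in siYAP cells in DMSO, against 10.04, 9.99 and 9.87 in siNT cells. Under erastin STIL had 8.88, 9.21 and 9.05 in siYAP cells, against 9.85, 9.69 and 9.84 in siNT cells. Again the groups did not overlap, and STIL fell by 0.82 in DMSO (SE 0.0905, adjusted p = 1.47e-05) and, with erastin, by 0.74 (adjusted p = 3.27e-05).

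CEP192 recruits PLK4 and later builds the mitotic centrosome matrix. It stood at 7.08, 7.21 and 7.08 in siYAP cells in DMSO, against 7.70, 7.73 and 7.62 in siNT cells, and at 7.01, 7.09 and 7.02 in siYAP cells under erastin, against 7.63, 7.50 and 7.81 in siNT cells. These groups were separate too, with falls of 0.56 in DMSO (SE 0.0751, adjusted p = 7.79e-05) and 0.61 under erastin (adjusted p = 3.58e-05). CEP57, CEP76 and CEP63 fell as well, CEP57 by 0.49 and 0.42, CEP76 by 0.48 and 0.40, and CEP63, the partner of CEP152, by 0.25 and 0.16 in DMSO and under erastin. The erastin call of CEP63 stood in 4 of 12 fits with an array left out (adjusted p = 0.0257 to 0.12). Its other probe set did not overlap, with siYAP and siNT means of 7.31 and 7.70 in DMSO and 7.23 and 7.56 under erastin. CEP152, the other scaffold of PLK4, was dim, at 4.66, 4.48 and 4.45 in siYAP cells in DMSO, against 4.59, 4.83 and 4.85 in siNT cells. Under erastin it was at 4.24, 4.60 and 4.45 in siYAP cells, against 4.68, 4.53 and 4.70 in siNT cells. Its groups overlapped, and the differences of -0.23 (95% interval -0.44 to -0.01, adjusted p = 0.11) and -0.20 (-0.42 to 0.02, adjusted p = 0.148) did not pass. Without siNT_DMSO replicate 1 the DMSO difference was -0.31 (adjusted p = 0.0438, and 0.0194 to 0.298 over its alternatives). Over the alternatives the erastin difference ran from -0.39 to -0.11 (adjusted p = 0.017 to 0.487). The other CEP152 probe set, about as bright, had DMSO means of 4.37 in siYAP and 4.73 in siNT cells, with overlap. Under erastin its means were 4.40 and 4.79, and its groups did not overlap. CEP85 and CEP295 passed in neither comparison.

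**Figure D2:**
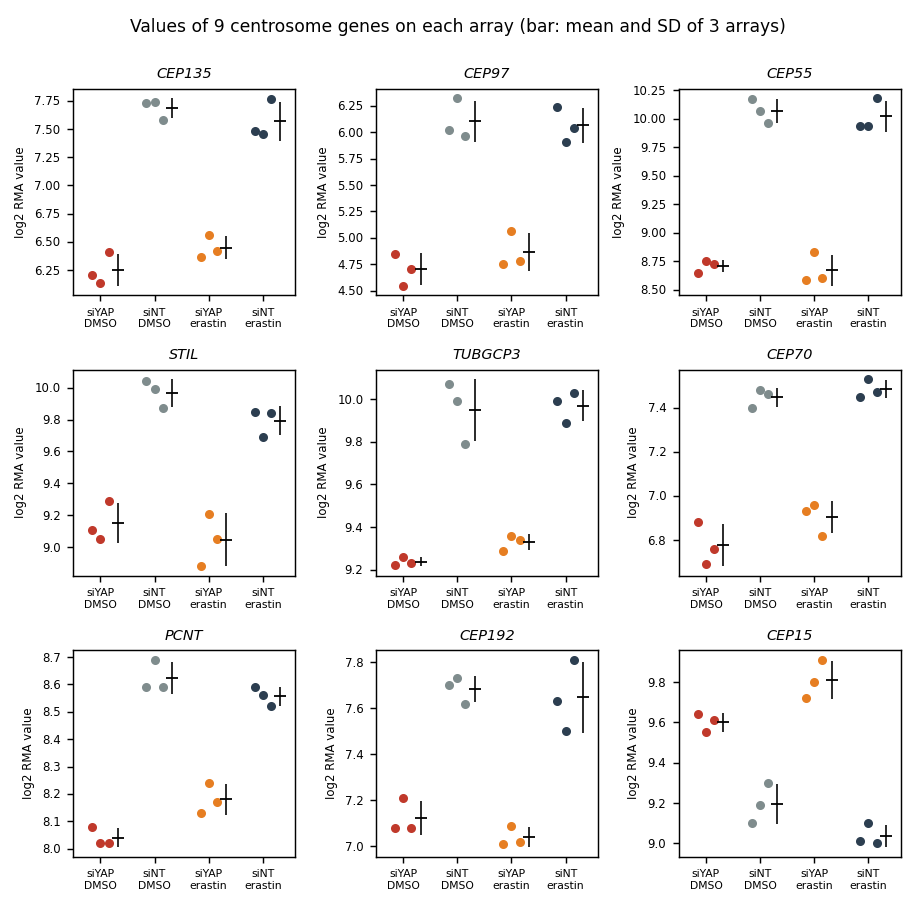
Log2 RMA value (vertical axis, scaled per gene) of 9 centrosome genes on each array, by group, with the mean and SD of 3 arrays beside the points. In CEP135, CEP97, CEP55, STIL, TUBGCP3, CEP70, PCNT and CEP192 every siYAP array lies below every siNT array, and in CEP15 every siYAP array lies above, between 9.55 and 9.91 against 9.00 to 9.30.

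The promoters of the 5 genes with the largest falls in DMSO that had an entry are shown, and these genes fell in both comparisons. Each is 300 bases from RefSeq's start site, 250 before and 50 after, 5′ to 3′ on the gene's strand (GRCh38.p14). Capitals mark matches on either strand to the TEAD core (GGAATG), to the cell cycle homology region or CHR, an element of mitotic genes (TTTGAA, or TTTAAA as a second form), to the CCAAT box and to E2F sites (TTCCCGC or TTGGCGC). On the opposite strand the CHR reads TTCAAA and the CCAAT box ATTGG. CEP135 lies at chr4:55948695-55948994 on the plus strand, CEP97 at chr3:101724364-101724663 and CEP55 at chr10:93496362-93496661 on the plus strand, and STIL at chr1:47314098-47314397 and TUBGCP3 at chr13:112588104-112588403 on the minus strand.
CEP135: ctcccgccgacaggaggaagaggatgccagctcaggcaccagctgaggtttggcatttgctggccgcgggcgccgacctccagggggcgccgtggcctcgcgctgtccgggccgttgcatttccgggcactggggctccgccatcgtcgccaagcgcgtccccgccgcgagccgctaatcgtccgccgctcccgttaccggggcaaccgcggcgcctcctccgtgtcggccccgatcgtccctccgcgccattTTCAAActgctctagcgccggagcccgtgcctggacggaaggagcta
CEP97: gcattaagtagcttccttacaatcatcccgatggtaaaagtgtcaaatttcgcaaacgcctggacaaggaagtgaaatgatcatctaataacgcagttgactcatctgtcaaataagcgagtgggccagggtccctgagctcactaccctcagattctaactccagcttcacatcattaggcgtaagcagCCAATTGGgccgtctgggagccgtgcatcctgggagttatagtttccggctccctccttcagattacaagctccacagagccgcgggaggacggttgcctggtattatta
CEP55: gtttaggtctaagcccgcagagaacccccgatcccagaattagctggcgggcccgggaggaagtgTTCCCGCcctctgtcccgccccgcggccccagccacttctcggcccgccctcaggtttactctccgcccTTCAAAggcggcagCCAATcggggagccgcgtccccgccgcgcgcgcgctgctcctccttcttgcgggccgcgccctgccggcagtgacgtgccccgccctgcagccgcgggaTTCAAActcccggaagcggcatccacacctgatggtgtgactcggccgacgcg
STIL: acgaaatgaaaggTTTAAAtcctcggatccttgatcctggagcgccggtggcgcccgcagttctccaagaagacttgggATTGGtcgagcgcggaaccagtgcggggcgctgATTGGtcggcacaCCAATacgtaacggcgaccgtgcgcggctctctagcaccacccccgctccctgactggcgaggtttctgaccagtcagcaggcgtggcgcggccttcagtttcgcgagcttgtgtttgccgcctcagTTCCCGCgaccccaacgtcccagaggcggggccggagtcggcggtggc
TUBGCP3: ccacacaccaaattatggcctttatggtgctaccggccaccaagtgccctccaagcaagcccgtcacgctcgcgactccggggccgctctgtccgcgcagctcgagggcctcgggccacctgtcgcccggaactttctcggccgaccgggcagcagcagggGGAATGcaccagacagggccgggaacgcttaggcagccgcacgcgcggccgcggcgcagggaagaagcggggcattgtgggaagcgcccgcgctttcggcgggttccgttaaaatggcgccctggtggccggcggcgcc
The CHR of CEP135 began 4 bases into the transcript, and CEP55 held a pair of them, one upstream of its start and the other across it, with an E2F match and a CCAAT box. CEP97 held overlapping CCAAT boxes on both strands, STIL held 3 CCAAT boxes, and TUBGCP3 held the TEAD letters. A promoter was listed for 47 of the 54 genes, 16 of the 17 that fell in both comparisons and 18 of the 22 that passed in neither. TTTGAA stood in 8 of the 16 (CEP135, CEP192, CEP290, CEP55, CEP57, CEP76, CKAP5 and TUBB4B), in 4 of the 18 and in 15.2% of all 35116 promoters. The TEAD core stood in 2 of the 16 (TUBB4B and TUBGCP3), in 3 of the 18 and in 14.0% of all promoters. CCAAT stood in 9 of the 16, 9 of the 18 and 34.6%, TTCCCGC in 4, 4 and 6.55%, TTTAAA in 1, 2 and 12.2%, and TTGGCGC in 1, 3 and 3.04%. CCAAT can overlap TTGGCGC on the opposite strand, and none of these matches is a measured binding site.

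CEP55 acts at the other end of the cycle, at the midbody, where it brings in the machinery that cuts daughter cells apart. It stood at 8.65, 8.75 and 8.73 in siYAP cells in DMSO, against 10.17, 10.07 and 9.96 in siNT cells, and at 8.59, 8.83 and 8.60 in siYAP cells under erastin, against 9.94, 9.94 and 10.18 in siNT cells. The gap between groups was several times the spread within them, and CEP55 fell by 1.36 in DMSO (SE 0.0864, adjusted p = 1.71e-07) and, with erastin, by 1.35 (adjusted p = 1.96e-07), the lowest adjusted p of the 54 genes in both. Beside it, 29 of 29 measured genes of a list of G2 and mitosis fell in each comparison, with medians of -1.07 in DMSO and -0.95 under erastin (KIF23 -1.64 and -1.40, HMMR -1.59 and -1.41). The 54 genes had medians of -0.16 and -0.18, and the part of this list in their change was not tested.

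Among the 7 matrix, centrin and microtubule growth genes, 3 fell in DMSO and 2 under erastin, and none rose. PCNT, the pericentrin scaffold that holds gamma-tubulin in the matrix, had 8.08, 8.02 and 8.02 in siYAP cells in DMSO, against 8.59, 8.69 and 8.59 in siNT cells. Under erastin it had 8.13, 8.24 and 8.17 in siYAP cells, against 8.59, 8.56 and 8.52 in siNT cells. Without overlap in either medium, PCNT fell by 0.59 in DMSO (SE 0.0522, adjusted p = 2.24e-06) and, with erastin, by 0.38 (adjusted p = 9.27e-05). CKAP5, a microtubule polymerase, fell by 0.48 and by 0.41. The centrins are calcium-binding proteins of the centriole. CETN3 had 9.93, 9.85 and 9.97 in siYAP cells in DMSO, against 10.22, 10.10 and 10.24 in siNT cells, and 10.02, 10.02 and 10.03 in siYAP cells under erastin, against 10.18, 10.14 and 10.13 in siNT cells. CETN2 had 10.78, 10.62 and 10.65 in siYAP cells in DMSO, against 10.55, 10.56 and 10.58 in siNT cells, and 10.75, 10.72 and 10.72 in siYAP cells under erastin, against 10.61, 10.61 and 10.55 in siNT cells. CETN3 fell by 0.27 in DMSO (adjusted p = 0.00156), and its -0.13 under erastin did not pass (95% interval -0.24 to -0.01, adjusted p = 0.0966). CETN2 lay higher on every siYAP array, by 0.12 in DMSO (0.01 to 0.24, adjusted p = 0.105) and 0.14 under erastin (0.02 to 0.25, adjusted p = 0.0671), short of the threshold. CEP68 and CEP250, which link the centrioles, and CEP350 passed in neither comparison.

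Centriolar satellites, granules that carry proteins to the centrosome and cilium, had 3 of 5 genes lower in DMSO and 2 under erastin, with medians of -0.21 and -0.19. PCM1, their scaffold, had 9.64, 9.60 and 9.54 in siYAP cells in DMSO, against 9.85, 9.83 and 9.72 in siNT cells, and 9.59, 9.65 and 9.63 in siYAP cells under erastin, against 9.93, 9.81 and 9.86 in siNT cells. Its groups were separate by small gaps, with falls of 0.21 in DMSO (SE 0.056, adjusted p = 0.0119) and 0.24 under erastin (adjusted p = 0.00415). Without siNT_DMSO replicate 1 the DMSO value did not pass (adjusted p = 0.0547, and 0.00152 to 0.0547 over its alternatives other than single further probe sets). Of its 5 probe sets 3 fell in both comparisons, and the dimmest 2 did not pass, at 0.02 and -0.06 in DMSO. CEP290, of the ciliary transition zone, fell by 0.39 and 0.37. Its other probe set overlapped in both media, with siYAP and siNT means of 6.95 and 7.33 in DMSO and 7.32 and 7.42 under erastin. CEP131 fell by 0.41 in DMSO, and its -0.19 under erastin did not pass. OFD1 and CEP72 passed in neither.

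Of 4 genes of appendages and cilium assembly, CEP164, which docks the mother centriole to the membrane, and CEP41 each fell by 0.24 in DMSO, and none passed under erastin. CEP41 was among the dim genes, with a mean under 5.1, and with an array left out CEP164 passed in 9 and CEP41 in 10 of 12 fits. The other CEP164 probe set had DMSO means of 5.49 in siYAP and 5.45 in siNT cells. NIN, of the subdistal appendages, and CEP162 passed in neither comparison. The remaining CEP genes held falls and a rise. CEP70, which binds gamma-tubulin, had 6.88, 6.69 and 6.76 in siYAP cells in DMSO, against 7.40, 7.48 and 7.46 in siNT cells, and 6.93, 6.96 and 6.82 in siYAP cells under erastin, against 7.45, 7.53 and 7.47 in siNT cells. CEP112 had 6.68, 6.54 and 6.65 in siYAP cells in DMSO, against 7.12, 7.25 and 7.15 in siNT cells, and 6.74, 6.92 and 6.70 in siYAP cells under erastin, against 7.11, 7.09 and 7.33 in siNT cells. Neither gene overlapped between groups: CEP70 fell by 0.67 and 0.58 (SE 0.0619, adjusted p = 2.85e-06 and 1.1e-05), and CEP112 by 0.55 and 0.39 (SE 0.0801, adjusted p = 0.000145 and 0.0021). CEP43, at the mother centriole's appendages, fell by 0.25 in DMSO on its brightest probe set. Another of its 3 probe sets fell by 0.85 in DMSO (adjusted p = 2.75e-06 over all probe sets) and, with erastin, by 0.76 (adjusted p = 6.86e-06).

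CEP15 went the other way. It stood at 9.64, 9.55 and 9.61 in siYAP cells in DMSO, against 9.10, 9.19 and 9.30 in siNT cells, and at 9.72, 9.80 and 9.91 in siYAP cells under erastin, against 9.01, 9.10 and 9.00 in siNT cells. Every siYAP array was higher, and CEP15 rose by 0.40 in DMSO (SE 0.0671, adjusted p = 0.000469, 1.32-fold) and, with erastin, by 0.77 (adjusted p = 1.95e-06, 1.71-fold). The difference between these changes, 0.38 (95% interval 0.17 to 0.58), had an adjusted p of 0.378 and did not pass. It was the only rise of at least 0.5 among the 54 genes.

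The gamma-tubulin ring complex, the template from which microtubules start, had 1 of 6 genes lower and 1 higher in DMSO. These are 16.7% each, near the 15.6% and 18.1% of all genes. Under erastin 2 were lower and 1 higher (33.3% and 16.7%, against 14.8% and 20% of all genes). TUBGCP3, a core subunit of the ring, had 9.22, 9.26 and 9.23 in siYAP cells in DMSO, against 10.07, 9.99 and 9.79 in siNT cells, and 9.29, 9.36 and 9.34 in siYAP cells under erastin, against 9.99, 9.89 and 10.03 in siNT cells. The groups were well apart, and TUBGCP3 fell by 0.71 in DMSO (SE 0.0693, adjusted p = 4.59e-06, 1.64-fold lower) and, with erastin, by 0.64 (adjusted p = 1.19e-05). Its second probe set, at a mean of 5.21, also fell, by 0.55 and 0.92. TUBG1, the main gamma-tubulin, had 9.49, 9.56 and 9.57 in siYAP cells in DMSO, against 9.51, 9.48 and 9.47 in siNT cells, and 9.51, 9.46 and 9.43 in siYAP cells under erastin, against 9.42, 9.34 and 9.46 in siNT cells. These overlapped, and the differences of 0.06 (95% interval -0.06 to 0.17) in each medium did not pass (adjusted p = 0.484 and 0.471). TUBG2, its paralogue, rose by 0.22 and 0.21, and passed in 8 of 12 fits with an array left out in each medium. TUBGCP5 fell by 0.32 under erastin, in 8 of the 12 fits, its -0.18 in DMSO did not pass, and TUBGCP2 and TUBGCP4 passed in neither.

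The alpha- and beta-tubulins are the building blocks of the microtubule. Their genes are close paralogues, and probes of some sets match several of them, so the values of single tubulins are uncertain. On the brightest probe set of each gene, 2 of the 15 alpha- and beta-tubulins fell in DMSO (TUBA4A and TUBB4B) and TUBA1A rose. Under erastin 8 fell and TUBA1A rose. Further probe sets of TUBB and TUBB3 fell in DMSO too, as given below. Over all genes 15.6% fell and 18.1% rose in DMSO, and 14.8% and 20% under erastin. The median change of the 6 alpha-tubulins was -0.04 in DMSO and -0.22 under erastin, and that of the 9 beta-tubulins -0.03 and -0.08. For none of the 15 did the difference between both changes pass the test. TUBA1B, the brightest alpha-tubulin, had 14.01, 14.13 and 14.01 in siYAP cells in DMSO, against 14.16, 14.14 and 14.06 in siNT cells, and 13.93, 13.92 and 13.91 in siYAP cells under erastin, against 14.06, 14.11 and 14.20 in siNT cells. It overlapped in DMSO, where the difference was -0.07 (95% interval -0.20 to 0.05, adjusted p = 0.396), and fell by 0.21 under erastin (adjusted p = 0.0133), as did all 5 of its probe sets. TUBA4A fell in both media, by 0.15 with DMSO (adjusted p = 0.0471) and by 0.39 with erastin (adjusted p = 0.000101). Its DMSO call stood in only 2 of 12 fits with an array left out (adjusted p = 0.0382 to 0.206), and was lost with adjustment over all probe sets (adjusted p = 0.0635). TUBA1A was at 13.36 on each siYAP array in DMSO, against 13.06, 12.92 and 12.99 in siNT cells, and rose by 0.37 (adjusted p = 6.86e-05). Under erastin TUBA1A was at 13.27, 13.23 and 13.24 in siYAP cells, against 13.06, 13.06 and 13.04 in siNT cells, and rose by 0.19 (adjusted p = 0.00913).

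TUBB, the beta-tubulin most dividing cells use, gave different answers by probe set. The brightest, which stands for the gene here, had 12.72, 13.05 and 12.70 in siYAP cells in DMSO, against 13.07, 13.03 and 12.94 in siNT cells, and 12.64, 12.62 and 12.55 in siYAP cells under erastin, against 12.93, 13.08 and 13.09 in siNT cells. Its groups overlapped in DMSO through siYAP_DMSO replicate 2, with a difference of -0.19 (95% interval -0.38 to 0.00, adjusted p = 0.118), and it fell by 0.43 under erastin (adjusted p = 0.00183). The dimmest of its 3 probe sets had 11.14, 11.18 and 11.19 in siYAP cells in DMSO, against 12.37, 12.37 and 12.29 in siNT cells, and 11.04, 11.16 and 10.85 in siYAP cells under erastin, against 12.27, 12.25 and 12.12 in siNT cells. There the groups were far apart, with falls of 1.17 (adjusted p = 2.41e-07 over all probe sets) and 1.20 (adjusted p = 2.18e-07), while the remaining one read -0.23 in DMSO (adjusted p = 0.0985) and fell by 0.51 under erastin. By its identifier's suffix the dimmest is specific to TUBB, and the other two belong to the class whose probes can match other transcripts. TUBB4B fell in both media, by 0.42 with DMSO (adjusted p = 0.000334) and by 0.49 with erastin (adjusted p = 9.78e-05), and both of its probe sets fell. TUBB3, the beta-tubulin best known from neurons, was at 11.43, 11.89 and 11.44 in siYAP cells in DMSO, against 11.79, 11.69 and 11.65 in siNT cells, a difference of -0.12 that did not pass (adjusted p = 0.416), and it fell by 0.43 under erastin (adjusted p = 0.00561). Its second probe set fell in both media, by 0.24 in DMSO (adjusted p = 0.0119 over all probe sets) and by 0.27 under erastin (adjusted p = 0.00627). TUBB2A, TUBB6, TUBB2B, TUBB4A and TUBB7P passed in neither comparison, and of these TUBB2B, TUBB4A and TUBB7P were among the dim genes, as were TUBA8 and TUBB1.

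A single array bears on the tubulins in DMSO. On their brightest probe sets, replicate 2 of the siYAP cells in DMSO was the highest of its group for TUBB, TUBB3 and TUBB4B. It was also highest for TUBA1B, TUBA1C, TUBA4A, TUBB1, TUBB6 and TUBB7P, but not for TUBA4B, TUBA8, TUBB2A, TUBB2B and TUBB4A. By their suffix the sets of TUBB, TUBB3, TUBB4B, TUBA1B and TUBA1C can match other transcripts, so they may not be separate observations. Those of TUBA4A (11.25, 11.30 and 11.26) and TUBB6 (12.26, 12.40 and 12.32) have the specific suffix. On the TUBB set specific to TUBB, the group read 11.14, 11.18 and 11.19. The ACTB 3′ to 5′ control difference, a measure of RNA integrity, is larger where the 5′ signal is weaker. On siYAP_DMSO replicate 2 it was 1.49, the smallest of its group, against 3.14 on both other arrays, so this control does not mark replicate 2 as the poorer array. On siNT_erastin replicate 3 it was also 1.49. The GAPDH control difference was 0.22, 0.22 and 0.20 on the siYAP arrays in DMSO. Without siYAP_DMSO replicate 2, TUBB fell by 0.31 on its brightest probe set (adjusted p = 0.00531) and TUBB3 by 0.28 (adjusted p = 0.00609). Then 3 of 15 tubulins fell (TUBB, TUBB3 and TUBB4B). Over all arrays left out in turn, 1 to 3 tubulins fell in DMSO, and the adjusted p of TUBB ran up to 0.355 and that of TUBB3 up to 0.818. Under erastin the count of falls was 6 to 8. The ACTB difference was 2.59 ± 0.955 in siYAP cells in DMSO, against 2.68 ± 0.282 in siNT cells in DMSO, and 3.54 ± 0.179 in siYAP cells under erastin, against 2.26 ± 0.691 in siNT cells under erastin (SD, n = 3 arrays each). It did not overlap between the last 2 groups, whereas the GAPDH difference overlapped there, with means of 0.17 and 0.15. The part of the ACTB difference in the falls under erastin was not tested.

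**Figure D3:**
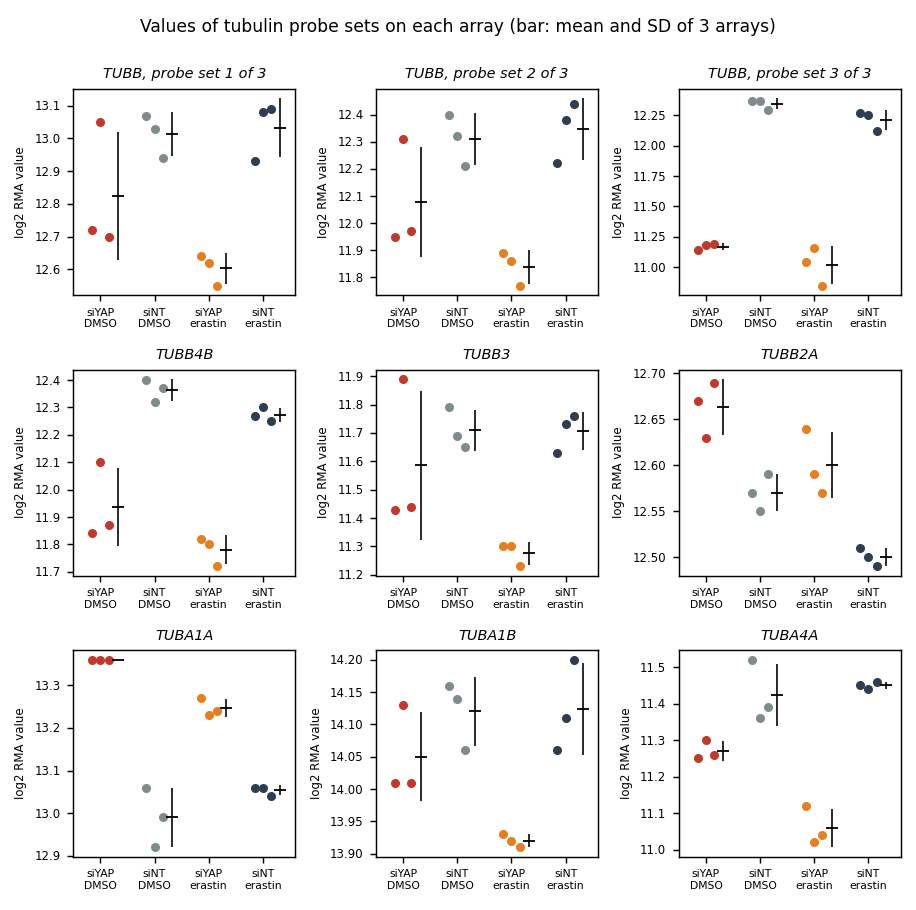
Log2 RMA value (vertical axis, scaled per panel) of tubulin probe sets on each array, by group, with the mean and SD of 3 arrays. The 3 probe sets of TUBB run from the brightest to the dimmest, and only the dimmest separates siYAP (11.14 to 11.19) from siNT (12.29 to 12.37) in DMSO, while siYAP_DMSO replicate 2 stands above its group in the brightest (13.05).

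Neighbouring genes of the same machinery were counted from lists of related genes outside the 54. Beside these counts, 15.6% of all genes were lower and 18.1% higher in DMSO, and 14.8% and 20% under erastin. Of 43 other centriole and centrosome factors 26 were measured, and 10 fell and 3 rose in DMSO (median -0.18), against 8 and 2 under erastin (median -0.11). CCP110, the cap partner of CEP97, fell by 1.24 and 1.19, and PLK4, the master kinase of centriole duplication, fell by 0.69 and 0.46. NEK2, the kinase that parts centrosomes, fell by 0.86 and 0.79, whereas NDEL1, a dynein regulator, rose by 0.78 and 0.85. Tubulin folding and modification genes (26 of 29 measured) were divided, with 6 lower and 5 higher in DMSO and 7 lower and 4 higher under erastin (medians -0.06 and -0.04). Among them CCT7, a chaperonin subunit that folds tubulin, fell by 0.58 and 0.82, and the tubulin cofactor TBCB rose by 0.36 and 0.49. Microtubule-associated and severing proteins (25 of 30 measured) had 10 lower and 5 higher in DMSO, and 8 lower and 6 higher under erastin, with medians of -0.03 and 0.01. SPAST, the severing enzyme spastin, changed by -2.56 and -2.22 (5.89-fold and 4.67-fold lower), more than any of the 54 genes, and the spindle factors TPX2 and MAPRE1 fell by 1.19 and 1.26 and by 0.98 and 1.02.

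Erastin changed none of the 54 genes beyond the test. In siYAP cells, siNT cells and the interaction, which is the erastin response of siYAP minus that of siNT cells, the counts were 0, 0 and 0, where 0.334%, 0.752% and 0% of all genes passed. These comparisons share their arrays with the silencing comparisons and with each other. The median change with erastin was 0.01 in siYAP cells (range -0.31 to 0.23) and -0.01 in siNT cells (-0.19 to 0.21). The 95% intervals of single genes reached at most -0.53 (TUBB3) and 0.43 (CEP97) in siYAP cells, and -0.38 (CEP131) and 0.51 (TUBB4A) in siNT cells, so larger changes of these genes lie outside them. At an unadjusted p under 0.05, limma passed 16 of 54 in siYAP cells (29.6%, and 10.7% of all genes), 3 in siNT cells (5.56%, and 10.6%) and 8 in the interaction (14.8%, and 9.86%). The 16 held 11 lower genes, 9 of them tubulins, among which TUBB3 differed by -0.31 (adjusted p = 0.347), TUBB by -0.22 (adjusted p = 0.419) and TUBA4A by -0.21 (adjusted p = 0.208). The 5 higher ones were CEP57 at 0.23, which had the lowest adjusted p (0.147), CEP15, CEP68, CEP72 and PCNT. With a trended and robust variance, TUBA4A passed in siYAP cells (adjusted p = 0.0377) and was the only one. All 6 alpha-tubulins had an interaction below 0, with a median of -0.18, and 13 of the 15 tubulins did, against 5696 of all 11963 genes. In siYAP cells 12 of 15 tubulins lay below 0 with erastin (5896 of all 11963 genes), and in siNT cells 6 of 15 (6174 of all genes). These values rest in part on siYAP_DMSO replicate 2, which was high for several tubulins. Without that array, TUBB differed by -0.11 with erastin in siYAP cells, and TUBA1B by -0.09 where all arrays gave -0.13. The interaction of TUBB was then -0.13, against -0.24 with all arrays. The siYAP arrays under erastin also had the highest ACTB 3′ to 5′ differences (3.35, 3.57 and 3.71), whose part was not tested. Their GAPDH differences were 0.20, 0.13 and 0.18, against 0.22, 0.22 and 0.20 in siYAP cells in DMSO.

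**Figure D4:**
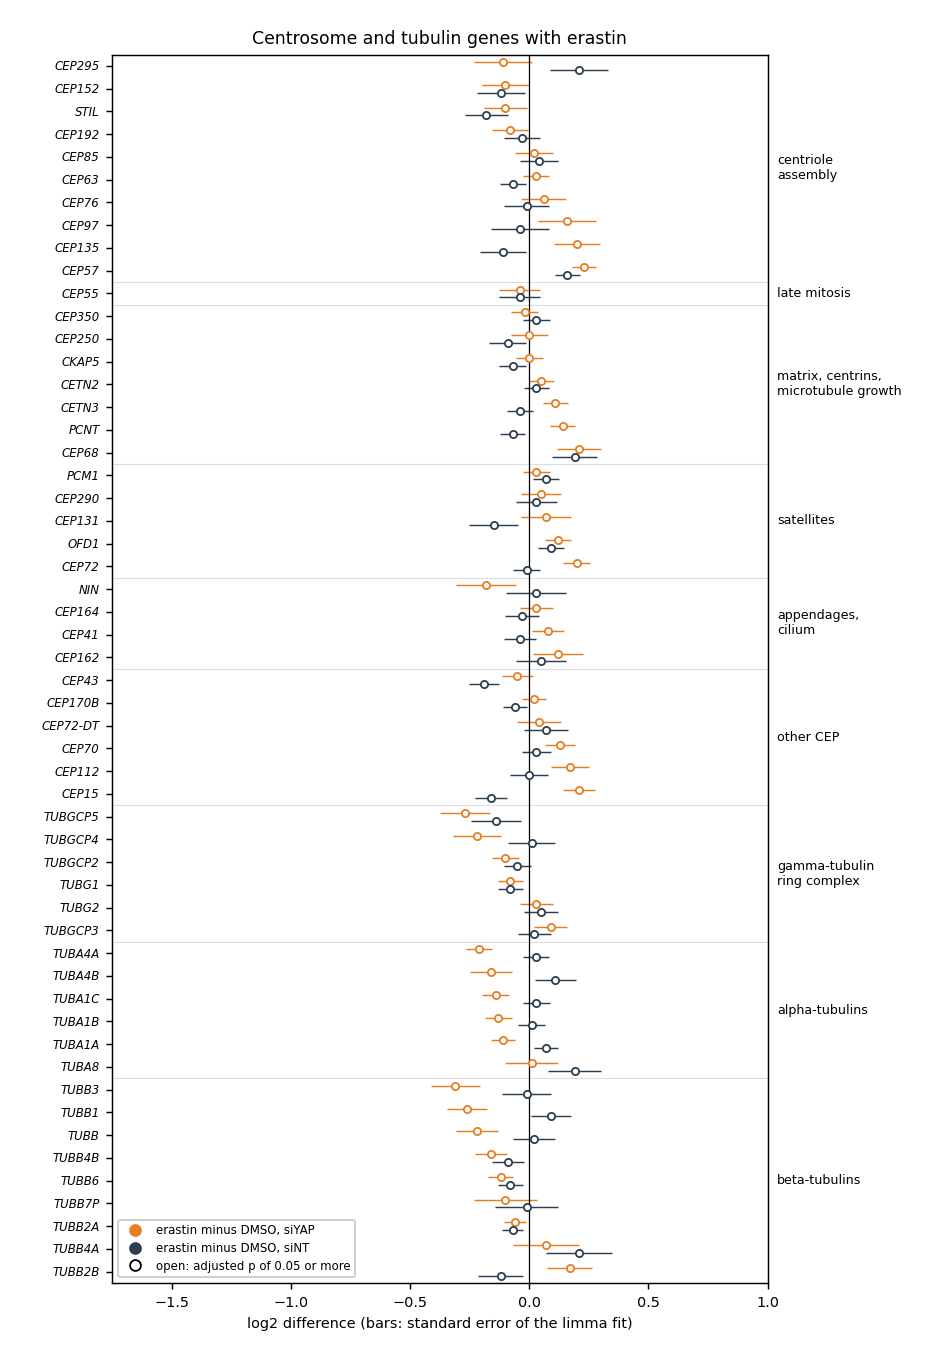
Change of each of the 54 genes with erastin, as erastin minus DMSO on the log2 scale (horizontal axis), in siYAP (orange) and siNT cells (dark blue), by role. Points are limma estimates with their SE, all open since no adjusted p is under 0.05. They lie between -0.31 and 0.23, and the tubulins of siYAP cells lie mostly left of 0.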

How the data were processed

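Arrays hybridised with RNA of RCC4 cells were grouped by siRNA and treatment from the sample titles. The submitters' processing notes name RMA and Affymetrix Expression Console, with versions not given in the sources used here, and the deposited values are log2 values. RMA equalises arrays and compresses differences of dim probe sets. Among 22277 probe sets, 62 were controls. A platform annotation table gave 1 symbol for 19065, several for 1043 and none for 2107. For each of 11963 genes the single-symbol probe set of the highest mean over 12 arrays was used; 20 of the 54 genes had several. Probe sets named for several genes were not used. Scan dates were not among the sources used here, and no batch was tested.

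Group means were fitted to all 12 arrays in limma 3.58.1 (R 4.3.3; 8 residual and 4.17 prior degrees of freedom), with Benjamini-Hochberg adjustment over all genes in each of 5 comparisons and a threshold of 0.05. All adjusted p-values are limma's. The test was tested on simulated data. Their noise was independent between genes and only siYAP cells in DMSO were changed, so effects shared by a whole array were not covered. The labels call the replicates biological without saying whether they were separate cultures, and the p-values measure only the spread between these arrays, which may be technical. The genes and lists were chosen with earlier results of these data known. Array values are given for genes past the test with a change of at least 0.5, and for 11 fixed names that were measured (TUBB, TUBA1B, TUBG1, PCNT, PCM1, CEP192, CEP152, STIL, CEP55, CETN2 and CETN3). Array values of TUBA1A and TUBB3, and other genes named with values outside these rules, were chosen after their values were seen. Up to 4 passing genes of largest change stand for each related list. Replicate numbers showed no sign of pairing the samples, so they are no block. Alternatives were other fits, scalings, probe sets and filters, array weights, a minimum change and each array left out.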

Additional observations from a re-analysis of the deposited data

How the results depend on the processing

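Silencing counts kept within 1.5 times under the alternatives run, except with a change of at least 0.5 also required and, for rises in DMSO, with array weights (5 against 3). With the minimum change, 9 genes passed in DMSO (9 lower, 0 higher) and 8 under erastin (7 lower, 1 higher). With each array left out in turn, 23 to 27 of the 54 passed in DMSO (21 to 23 lower, 2 to 4 higher) and 23 to 28 under erastin (20 to 25 lower, 2 to 4 higher), and 0 each time with erastin in siYAP cells, siNT cells and the interaction. The fewest calls came without siNT_DMSO replicate 2 in DMSO and without siNT_erastin replicate 3 under erastin, and the fewest falls without siNT_DMSO replicate 1 in DMSO and without siYAP_erastin replicate 3 under erastin. Of the calls, 20 of 25 in DMSO and 22 of 27 under erastin stood whichever array was left out. In DMSO the call was lost for CEP164 without siNT_DMSO replicate 1 or 2 or siYAP_DMSO replicate 2, for CEP41 without siNT_DMSO replicate 3 or siYAP_DMSO replicate 2, for PCM1 without siNT_DMSO replicate 1, for TUBG2 without siNT_DMSO replicate 2 or 3 or siYAP_DMSO replicate 1 or 3, and for TUBA4A without any array but siNT_DMSO replicate 2 or siNT_erastin replicate 3. Under erastin it was lost for TUBA4B without siYAP_erastin replicate 1 or 3, for TUBB1 and TUBGCP5 without siNT_erastin or siYAP_erastin replicate 2 or 3, and for TUBG2 without siNT_erastin replicate 2 or 3 or siYAP_erastin replicate 1 or 2. CEP63 kept its call under erastin only without siNT_DMSO replicate 3, siNT_erastin replicate 2 or siYAP_DMSO replicate 1 or 2. Trended and robust variance called 1 gene with erastin in siYAP cells (TUBA4A). With the replicate number as a replicate block, 24 genes passed in DMSO and 27 under erastin, and 0 in the other comparisons. Deviations of same-numbered arrays correlated at -0.42 to 0.19 (median -0.02, 18 pairs), and those of other-numbered arrays at -0.22 to 0.34 (median 0.02, 36 pairs). These show no sign of pairing by number. Only 0 of 12 arrays correlated best with their own number in all other groups at once, a strict count that cannot exclude a weak pairing.

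Of 1828 values of single genes under alternatives, 1804 kept their direction and side of the threshold, 6 lost and 16 gained a call, and 2 changed sign. Both sign changes were PCM1 on another probe set, chosen after seeing the data, at 0.02 in DMSO and 0.02 under erastin. Of the 20 genes with several probe sets, 10 were called in DMSO and 12 under erastin. For 7 and 10 of these another probe set was called in the same direction, and for 0 in the opposite one. Of 25 called results of genes named by rule, 21 were called under every alternative. PCM1 lost its call under erastin with the mean of its probe sets (-0.17, adjusted p = 0.0537, and 0.000359 to 0.0537 over its alternatives other than single further probe sets). The cause was not tested. A fit of only the arrays compared has no interaction, and without the dimmest 30% of probe sets 44 of the 54 genes were left. Dim genes, 10 of the 54 below 5.1, limit what could be measured.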
